A study of Mus musculus with 22 samples.

Results

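The neurotrophin genes described here are Bdnf and Ntf3, which encode secreted ligands, and Ntrk2, Ntrk3 and Ngfr, which encode their receptors. They were chosen by name and make up 5 of the 20668 genes in the table of hypothalamic nuclei and 5 of the 16304 genes in the table of hypothalamic whole cells. Their unique molecular identifier (UMI) counts were followed in every cell type or cluster, after fibroblast growth factor 1 (FGF1) against vehicle, on Day 1 and Day 5.

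All mice were male ob/ob mice of 11 weeks, which lack leptin and are obese and diabetic, and they were housed individually. FGF1 mice received 3 µg of FGF1 in a single intracerebroventricular (icv) injection, and vehicle mice received icv PBS and were pair-fed to the intake of the FGF1 mice. Nuclei came from 3 FGF1 and 3 vehicle mice killed 24 h after the injection (Day 1) and from 2 FGF1 and 2 vehicle mice on Day 5. Whole cells came from another 12 mice on Day 5, 6 for each treatment, from which the authors had removed neurons. Each library was 1 mouse.

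Neurotrophins are secreted as proforms that are cleaved to mature dimers. Mature brain-derived neurotrophic factor (BDNF) binds the receptor tyrosine kinase TrkB, the product of Ntrk2, and neurotrophin-3, the product of Ntf3, binds mainly TrkC, the product of Ntrk3. The proforms bind the p75 receptor, encoded by Ngfr, together with sortilin. TrkB exists in a full-length form with a kinase domain and in truncated forms without it, and glia are known mainly for truncated TrkB. In the hypothalamus BDNF is best known from the ventromedial nucleus, where loss of BDNF or of TrkB leads to overeating and obesity.

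In GRCm38, with GENCODE M21 genes, Bdnf lies on the plus strand at chr2:109674700-109727007 and Ntf3 on the minus strand at chr6:126101412-126166910. Ntrk2 lies on the plus strand at chr13:58806569-59133970, Ntrk3 on the minus strand at chr7:78175959-78738012 and Ngfr on the minus strand at chr11:95568818-95587735. The libraries read the 3′ end of transcripts. The 7 protein-coding transcripts of Ntrk2 have 6 different 3′ ends spread over 255221 bases, and the 6 protein-coding transcripts of Ntrk3 have 6 spread over 401577 bases. A gene count adds all of them, so full-length and truncated TrkB or TrkC could not be told apart. Exons of Bdnf overlap an antisense gene, Gm45346, which has no row in either table, and Gm9885, an antisense gene with a row in both tables, lies within an intron of Ntrk3.

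The 24965 nuclei came from libraries with 2721087 to 16345981 UMIs and the 54890 whole cells from libraries with 2652897 to 11866269 UMIs. On Day 1 the median UMI count per nucleus was 2029 to 2816 in FGF1 libraries and 3178.5 to 3776 in vehicle libraries, so treatment and depth ran together. Of 24645 barcode sequences of nuclei, 318 occurred in more than 1 library, as did 1791 of 53065 barcode sequences of whole cells. Labels of nuclei were the authors' own, and whole-cell clusters were named from marker genes. Nuclei labelled oligodendrocytes, OPC/COP (oligodendrocyte precursors and committed precursors) and microglia carried neuron markers at nearly neuronal levels. The summed level of 9 neuron markers in Day 1 vehicle mice was 3545 to 3869 CPM (a mouse's UMIs of a gene scaled to a total of 1000000 UMIs in that cell type) in nuclei labelled oligodendrocytes, 2837 to 3625 CPM in OPC/COP and 3201 to 4246 CPM in microglia, beside 3813 to 4227 CPM in all neurons. Levels of neurotrophin genes under these 3 labels were therefore not read as glial. Levels by mouse, and their means and tests, used mice with at least 10 cells of a type, while levels given with a Poisson interval pool the UMIs of every mouse.

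Detection differed widely between the 5 genes. In nuclei, Ntrk2 was counted 30726 times in 58.7% of nuclei and Ntrk3 29980 times in 58.0%. Bdnf gave 1855 UMIs in 6.26% of nuclei, Ntf3 375 UMIs in 1.47% and Ngfr 61 UMIs in 0.236%. In whole cells, Ntrk2 was counted 126914 times in 69.7% of cells and Ntrk3 3084 times in 5.21%. Bdnf gave 258 UMIs, Ngfr 102 and Ntf3 54 in the whole cells, each in under 1% of cells. Ntrk2 and, in nuclei, Ntrk3 could therefore be compared in most types, while Bdnf could be compared in a few neuron labels and Ntf3 and Ngfr hardly at all.

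FGF1 was compared with vehicle by edgeR's quasi-likelihood test on UMIs summed per mouse and type, with Benjamini-Hochberg false discovery rates (FDR) over all genes tested in a type and calls at an FDR below 0.05. Fold changes are log2 of FGF1 over vehicle with their SE. Whether the values of the groups overlapped is given as a description, and the share of all genes without overlap is not given. On Day 1, the 5 genes gave 43 tests in 19 types of nuclei, of which 1 was called and 5 had an unadjusted p below 0.05. Over all genes and types of that comparison 0.867% of tests were called. Of the 5 with an unadjusted p below 0.05, 3 were Bdnf in neuron types, 1 of which contains the others. The share of all tests with such a p is not given on either day. On Day 5, 31 tests in 12 types of nuclei gave 0 calls with edgeR and 0 with DESeq2, with an unadjusted edgeR p below 0.05 in 1, and 0.235% of all tests were called. In whole cells 2 of 15 tests in 11 types were called, where 4.18% of all tests were called. By whole-cell cluster 2 of 21 tests in 16 clusters were called, where 1.75% of all tests were called. In these tests Ngfr passed the filter on low counts in no type or cluster, and Bdnf and Ntf3 passed it only in nuclei. In tests of a difference between effects, Ngfr passed it in all neurons (Day 5 minus Day 1 effect -0.99, SE 2.00, edgeR FDR 0.999). Bdnf passed it there in whole cells (tanycyte minus astrocyte effect -0.49, SE 0.75, edgeR FDR 0.736).

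Within neuron nuclei, Bdnf was higher in excitatory than in inhibitory neurons in each mouse. Nuclei with a UMI of Slc17a6, the vesicular glutamate transporter of most hypothalamic excitatory neurons, and none of Slc32a1, Gad1 or Gad2 were set against nuclei with a UMI of one of these GABA genes and none of Slc17a6. Bdnf was higher in the 2950 Slc17a6 nuclei than in the 6814 GABA nuclei in 10 of 10 mice. Its level ran from 19.7 to 62.0 CPM with a median of 36.4 CPM in Slc17a6 nuclei, and from 6.20 to 21.8 CPM with a median of 12.5 CPM in GABA nuclei. The neuron labels did not all follow this order. Among those with at least 2 vehicle mice on Day 1, the highest mean was in n02.Gm8773/Tac1 (42.0 ± 15.1 CPM, SD, n = 2), which carried GABA genes (mean over vehicle mice 594 CPM of Gad2 and 10.4 CPM of Slc17a6). It was followed by Glu5 (mean 33.2 CPM, 23.2 to 51.6, n = 3). These 2 labels overlapped in range and rested on 6 and 14 UMIs. Bdnf was also counted under labels that are not neuronal, at 8.14 CPM in astrocytes and 12.9 CPM in VLMC, the fibroblast-like cells of the meninges and vessels, from 12 and 2 UMIs. These means lay among those of the lower neuron labels, such as 8.16 CPM in n16.Rgs16/Vip and 2.36 CPM in n06.Oxt. In Day 1 FGF1 mice astrocyte nuclei stood at 19.9 CPM from 32 UMIs. The 9 neuron markers summed to 1407 to 2231 CPM in the astrocyte nuclei of Day 1 vehicle mice and to 876 to 1482 CPM in those of FGF1 mice, and their part in these Bdnf levels was not tested. The largest sample of Bdnf in a labelled neuron type was n29.Nr5a1/Adcyap1, with 267 UMIs in 2136 nuclei over both days. Nr5a1 encodes SF-1, which marks the ventromedial nucleus. The markers Nr5a1, Fezf1 and Sox14 together had a median of 35.9 CPM there in Day 1 vehicle mice. In all neurons, which include these nuclei, it was 12.1 CPM. The authors assigned the label from expression, so these values describe it and are no separate test of it.

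On Day 1, Bdnf in n29.Nr5a1/Adcyap1 nuclei was 54.9, 57.1 and 45.9 CPM in the FGF1 mice and 21.8, 24.9 and 9.07 CPM in the vehicle mice. All 3 FGF1 mice were above all 3 vehicle mice. The log2 fold change was 1.45 (SE 0.37, 116 against 32 UMIs), with an unadjusted p of 0.00158 but an edgeR FDR of 0.161, so Bdnf was not called in this label. With no filter on low counts the log2 fold change was 1.49 and the FDR 0.0282. In the run with the filter 10 of 8407 genes were called in this label, and the share without it is not given. Glu5, the other named neuron label tested, carried a mean over vehicle mice of 143 CPM of Slc17a6 and 89.9 CPM of Gad2. Its Bdnf was 60.6, 83.5 and 54.8 CPM with FGF1 and 24.9, 51.6 and 23.2 CPM with vehicle. These groups also did not overlap, but the vehicle values came from 14 UMIs in all, and the log2 fold change of 1.00 (SE 0.44) had an edgeR FDR of 0.963.

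In all neuron labels merged, Bdnf on Day 1 was 33.4, 37.1 and 19.0 CPM with FGF1 and 15.3, 21.0 and 12.7 CPM with vehicle. FGF1 replicate 3 lay among the vehicle mice. The log2 fold change was 0.91 (SE 0.31), with an edgeR FDR of 0.516. In neurons left unmapped by the authors it was 0.69 (SE 0.34), with an edgeR FDR of 0.731. Bdnf thus had a positive fold change in each of the 4 types tested on Day 1 and passed the threshold in 0 of them. These types are not separate results, because all neurons contain the others. A type could also pass the filter on low counts through its FGF1 mice alone. With no filter the fold change was negative in 6 of 19 types, such as -0.59 in n13.Agrp/Gm8773 and -0.45 in GABA15. On Day 5, Bdnf in n29.Nr5a1/Adcyap1 nuclei was 32.7 and 46.1 CPM with FGF1 and 19.8 and 41.7 CPM with vehicle. The groups overlapped, and the log2 fold change was 0.27 (95% CI -0.50 to 1.03, edgeR FDR 0.893). The difference between the Day 5 and Day 1 effects in this label was -1.16 (SE 0.56, unadjusted edgeR p 0.0532, FDR 0.784).

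**Figure D1:**
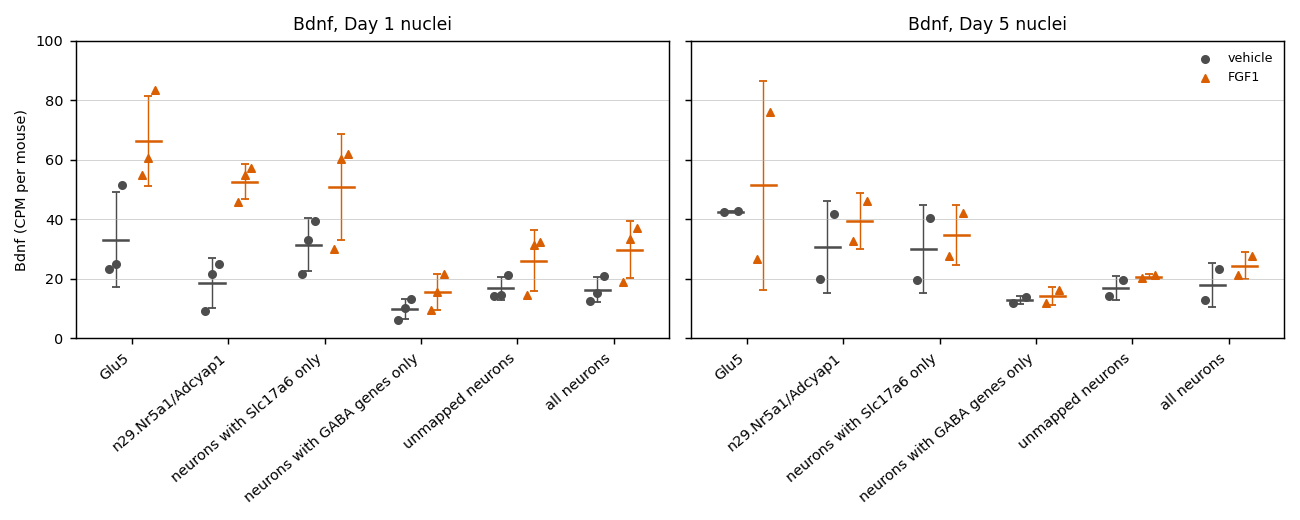
Bdnf in nuclei by mouse, as CPM of the neuron label, for FGF1 and vehicle mice on Day 1 and Day 5. Points are mice, bars are means and whiskers are SD. In n29.Nr5a1/Adcyap1 on Day 1 the FGF1 mice lie between 45.9 and 57.1 CPM and the vehicle mice between 9.07 and 24.9 CPM, while the Day 5 groups overlap.

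Bdnf in whole cells stayed near a common low level in most vehicle types. The vehicle mean was 5.67 CPM in astrocytes, 5.64 in microglia, 4.68 in endothelial cells and 3.67 in tanycytes, the ependymal-like cells that line the floor of the third ventricle. Macrophages stood at 21.7 CPM from 4 UMIs and pericytes at 0. Over whole libraries Bdnf stood at 0 to 1.88 CPM in the FGF1 mice and at 2.97 to 6.49 CPM in the vehicle mice, and its mean was lower with FGF1 in 10 of 11 types. Neuron markers were also lower with FGF1 in the whole cells. In the astrocyte class their sum was 124 to 246 CPM with FGF1 and 235 to 534 CPM with vehicle. With no filter on low counts Bdnf was called in 1 type, astrocytes, with a log2 fold change of -1.65 (SE 0.49, edgeR FDR 0.0240). In the run with the filter 6.06% of all genes tested in astrocytes were called lower, and the share without it is not given. The direction was not particular to astrocytes. With no filter the log2 fold change was -2.29 in tanycytes and -2.35 in endothelial cells (edgeR FDR 0.135 and 0.228), and it was negative in 10 of 11 types. The astrocytes of FGF1 and vehicle mice also fell mainly into different clusters, with a median of 79.4% of those of FGF1 mice and 6.60% of those of vehicle mice in cluster 4. In cluster 1 Bdnf stood at 2.03 CPM with FGF1, from 3 UMIs, and at 5.82 CPM with vehicle, from 52 UMIs. In cluster 4 it stood at 1.69 CPM with FGF1, from 9 UMIs, and at 1.67 CPM with vehicle, from 4 UMIs. The parts of neuronal RNA and of the cluster makeup in this result were not tested. Astrocyte nuclei on Day 5, from 2 mice per group, went the other way. Bdnf stood there at 14.8 and 15.3 CPM with FGF1, from 21 UMIs, and at 0 and 4.29 CPM with vehicle, from 3 UMIs. With no filter its log2 fold change in these nuclei was 2.03 (SE 0.91, edgeR FDR 0.457), so it was not called.

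Ntf3 was scarce in every neuron label. Over all neurons it stood at 4.89 CPM from 299 UMIs in 19416 nuclei, and Slc17a6 nuclei exceeded GABA nuclei in 4 of 10 mice. On Day 1, Ntf3 in all neurons was 4.62, 6.75 and 7.44 CPM with FGF1 and 6.54, 2.93 and 10.8 CPM with vehicle. The groups overlapped, and the log2 fold change was -0.06 (95% CI -1.16 to 1.05, edgeR FDR 0.984). On Day 5 the values were 2.65 and 3.43 CPM with FGF1 and 4.49 and 7.90 CPM with vehicle. Here both FGF1 mice were below both vehicle mice, but the log2 fold change of -0.78 (SE 0.41) had an edgeR FDR of 0.524.

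In whole cells, 36 of the 54 Ntf3 UMIs came from tanycytes, at 1.46 CPM (95% exact Poisson interval 1.02 to 2.02), and 32 of these from cluster 0. Astrocytes, with 2 UMIs, stood at 0.123 CPM (0.0149 to 0.444). Intervals here cover counting error only. The highest pooled level was in cluster 19, 95 cells led by the smooth muscle genes Acta2, Myh11 and Tagln, with 5 UMIs and 31.7 CPM (10.3 to 74.0). Most mice had fewer than 10 of these cells. In those with at least 10, it stood at 43.1 CPM in 1 FGF1 mouse and at 47.4 and 51.9 CPM in 2 vehicle mice, from 4 UMIs in all. Cluster 19 was left without a name because it held fewer than 100 cells.

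Ntrk2 was detected in more nuclei and cells than the other 4 genes and in vehicle mice its highest mean was in tanycytes. In Day 1 vehicle nuclei it stood at 2235 ± 165 CPM in tanycytes (SD, n = 3), apart in range from ependymal cells at 1414 ± 346 CPM. Ependymal cells overlapped astrocytes at 1035 ± 269 CPM. The neuron labels with at least 2 vehicle mice lay below astrocytes, from 412 CPM in GABA15 down to 236 CPM in n06.Oxt, and each overlapped its neighbour in the order. Among labels with 1 vehicle mouse the highest was GABA14, at 726 CPM from 23 UMIs in 11 nuclei. In Day 5 vehicle nuclei, astrocytes at 942 ± 139 CPM (SD, n = 2) stood apart from every neuron label with 2 vehicle mice.

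Whole cells gave the same leading types in a separate cohort. Vehicle tanycytes stood at 3065 ± 351 CPM (SD, n = 6), apart from astrocytes at 1875 ± 95.6 CPM, which were apart from ependymal cells at 1275 ± 214 CPM. Ependymal cells overlapped pericytes at 934 CPM, and each later type overlapped the next, through OPC at 845 CPM down to COP at 329 CPM. In FGF1 mice on Day 5 the order of the first 2 types differed, with a mean of 2667 CPM in astrocytes and 2294 CPM in tanycytes, which overlapped. Within neurons, Ntrk2 ran opposite to Bdnf. It was higher in GABA nuclei than in Slc17a6 nuclei in 10 of 10 mice, with medians of 313 and 281 CPM.

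**Figure D2:**
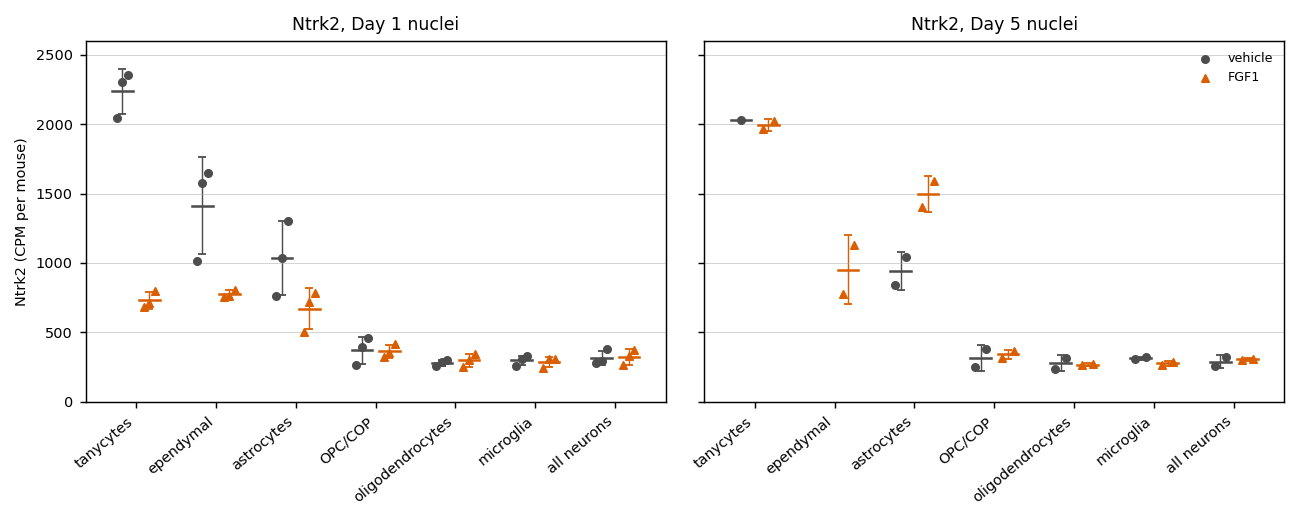
Ntrk2 in nuclei by mouse, as CPM of the type, for FGF1 and vehicle mice on Day 1 and Day 5. Points are mice, bars are means and whiskers are SD. On Day 1 the tanycyte nuclei of vehicle mice lie between 2047 and 2353 CPM and those of FGF1 mice between 680 and 798 CPM.

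The 1 call on Day 1 was Ntrk2 in tanycyte nuclei. It stood at 712, 798 and 680 CPM in the FGF1 mice, from 119, 43 and 25 nuclei, and at 2305, 2353 and 2047 CPM in the vehicle mice, from 32, 35 and 20 nuclei. The groups did not overlap. The log2 fold change was -1.56 (SE 0.37, 95% CI -2.35 to -0.76, edgeR FDR 0.0192), and 3.76% of the 3534 genes tested in this type were called lower. The call was lost with the replicate numbers as a block (FDR 0.0531), with the authors' batches as a block (FDR 0.0971) and without FGF1 replicate 2 (FDR 0.0866), FGF1 replicate 3 (FDR 0.0566) or vehicle replicate 1 (FDR 0.121). The fold change itself stayed between -1.52 and -1.67 on leaving out each mouse.

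Other features moved with the groups in these tanycyte nuclei. Their median UMI count was 2846, 2803 and 2298 with FGF1 and 3799, 3795 and 3383.5 with vehicle. The median share of UMIs on ribosomal protein genes was 6.84, 3.55 and 2.99% with FGF1 and 2.06, 2.09 and 1.96% with vehicle. The 11 tanycyte markers summed to 997 to 1298 CPM with FGF1 and 1374 to 2182 CPM with vehicle. The 9 astrocyte markers summed to 970 to 1629 CPM against 1918 to 3031 CPM, and the 6 ependymal markers in the table to 75.6 to 108 CPM against 444 to 720 CPM. No tanycyte, astrocyte or ependymal marker was at 0 in either group. The part of these differences in the fall of Ntrk2 was not tested.

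Ependymal nuclei had Ntrk2 at 766, 808 and 753 CPM with FGF1 and at 1575, 1650 and 1017 CPM with vehicle on Day 1. All FGF1 mice were below all vehicle mice, and the log2 fold change of -0.86 (SE 0.31) had an edgeR FDR of 0.0564. On leaving out each mouse this FDR ran from 0.0352, without vehicle replicate 3, to 0.197. The median ribosomal share in ependymal nuclei was 2.85, 2.18 and 3.04% with FGF1 and 1.72, 1.59 and 1.89% with vehicle. Their median UMI counts overlapped between the groups. The part of these features in the ependymal value was not tested. Astrocyte nuclei had 722, 786 and 505 CPM with FGF1 and 1302, 765 and 1038 CPM with vehicle. Here the groups overlapped, and the log2 fold change was -0.56 (SE 0.55, edgeR FDR 0.936). VLMC nuclei, from 2 FGF1 and 3 vehicle mice, had a log2 fold change of -1.20 (SE 0.67, edgeR FDR 0.391). Their groups did not overlap. The tanycyte effect minus the astrocyte effect on Day 1 was -1.02 (SE 0.39, unadjusted edgeR p 0.0138, FDR 0.383) for Ntrk2, so the difference was not called. Of all genes, 0.303% were called in this test of tanycytes against astrocytes.

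On Day 5, Ntrk2 in tanycyte nuclei was 2022 and 1961 CPM in the FGF1 mice and 2028 CPM in vehicle replicate 38. The other vehicle mouse had 9 tanycyte nuclei, so no test was made. All 3 values were near those of the Day 1 vehicle mice. Astrocyte nuclei on Day 5 had 1403 and 1588 CPM with FGF1 and 1040 and 844 CPM with vehicle. Both FGF1 mice were above both vehicle mice, and the log2 fold change was 0.59 (SE 0.37, 95% CI -0.18 to 1.36, edgeR FDR 0.514). The Day 5 effect minus the Day 1 effect in astrocytes was 1.16 (SE 0.73, edgeR FDR 0.753). Over the 5 genes, 0 of 32 tests of a difference between days were called by edgeR, 0 had an unadjusted p below 0.05, and 0.00644% of all such tests were called.

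In neurons Ntrk2 gave small fold changes on both days. On Day 1 all neurons had 264, 377 and 330 CPM with FGF1 and 293, 282 and 377 CPM with vehicle, overlapping throughout, and the log2 fold change was 0.06 (95% CI -0.40 to 0.53). On Day 5 they had 300.1 and 312 CPM with FGF1 and 258 and 323 CPM with vehicle, and the log2 fold change was 0.19 (95% CI -0.12 to 0.51).

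**Figure D3:**
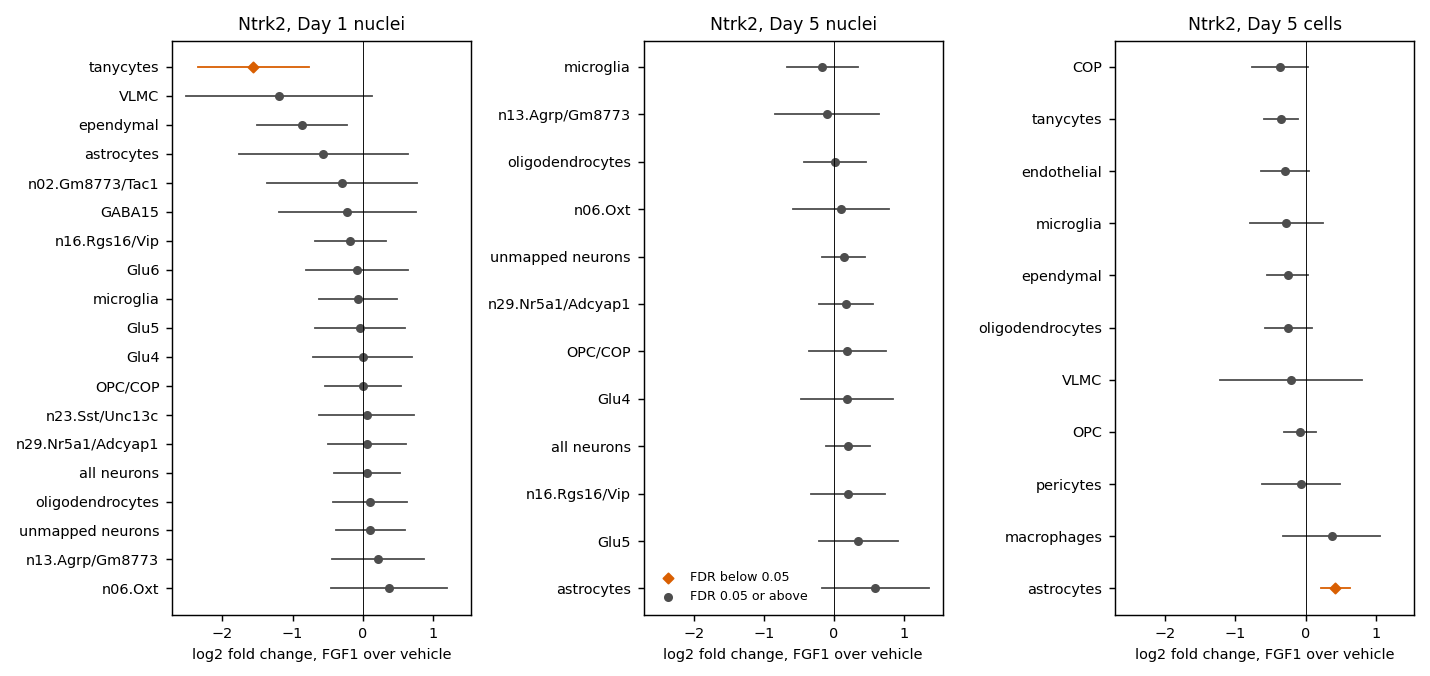
Log2 fold change of Ntrk2, FGF1 over vehicle, by type and day, with 95% confidence intervals from edgeR. Diamonds mark an FDR below 0.05, reached by tanycyte nuclei on Day 1 at -1.56 and by the astrocyte class of whole cells on Day 5 at 0.42.

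In whole cells on Day 5, Ntrk2 rose in the astrocyte class. It had a lowest value of 2338, a median of 2465 and a highest value of 3171 CPM in the FGF1 mice, and of 1717, 1897 and 2001 CPM in the vehicle mice. The groups did not overlap. The log2 fold change was 0.42 (SE 0.10, 95% CI 0.22 to 0.63, edgeR FDR 0.00518), and 6.55% of the genes tested in astrocytes were called higher. The call held in every alternative run, with FDR from 0.00316 to 0.0211 on leaving out each mouse.

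The astrocyte class joined 2 clusters that FGF1 and vehicle mice filled differently. Cluster 4, led by Gfap, Serpina3n and Aqp4, held 47.9 to 93.1% of the astrocytes of FGF1 mice and 3.74 to 18.4% of those of vehicle mice. Vehicle mice had Ntrk2 at 2882 ± 436 CPM in cluster 4 and at 1780 ± 96.3 CPM in cluster 1 (SD, n = 6). Within each cluster the treatments overlapped. The log2 fold change was -0.06 in cluster 1 (95% CI -0.30 to 0.18, edgeR FDR 0.928) and 0.02 in cluster 4 (95% CI -0.19 to 0.24, edgeR FDR 0.989). The genes that define these clusters include genes that changed with FGF1, so the shares are given as a description of the class and not as a result.

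Tanycytes had a negative fold change that was not called. Their Ntrk2 had a lowest value of 1515, a median of 2368 and a highest value of 2696 CPM with FGF1, and of 2565, 3019 and 3603 CPM with vehicle. The ranges overlapped slightly, and the log2 fold change was -0.35 (SE 0.12, edgeR FDR 0.0743), which was -0.37 with an FDR of 0.0287 with the authors' batches as a block and -0.26 with an FDR of 0.125 without FGF1 replicate 6. The makeup of the class also differed between mice. Cluster 0 held a median of 62.1% of the tanycytes of FGF1 mice and 80.7% of those of vehicle mice, and cluster 7 held 22.7% and 10.7%, with overlapping ranges. FGF1 replicate 6 had 116 of its 290 tanycytes in cluster 10 and 7 in cluster 7. The part of this makeup in the tanycyte value was not tested. All 3 tanycyte clusters had a negative fold change, of -0.34 in cluster 0 (FDR 0.0647, with every FGF1 mouse below every vehicle mouse), -0.33 in cluster 7 (FDR 0.172) and -0.63 in cluster 10 (SE 0.14, edgeR FDR 0.0106).

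Cluster 10, led by Fndc3c1, Col25a1 and Scn7a and holding the tanycyte marker Dio2, was the one called. Its Ntrk2 had a lowest value of 1432, a median of 1483 and a highest value of 2020 CPM with FGF1, and of 1847, 2612 and 3250 CPM with vehicle. The groups overlapped at their edges, and 1.16% of the genes tested in this cluster were called lower. With no filter on low counts the FDR was 0.0954. Astrocyte markers in this cluster summed to 791 to 1163 CPM with FGF1 and 1315 to 2659 CPM with vehicle, with 0 markers at 0 in either group, and their part in the result was not tested.

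The tanycyte effect minus the astrocyte effect in whole cells was -0.78 (SE 0.11, edgeR FDR 1.61e-06) for Ntrk2. Of all genes, 15.4% were called in this test. The astrocyte class in it held the shift between clusters 1 and 4 given above. In the remaining whole-cell types Ntrk2 was not called, with log2 fold changes from -0.36 in COP to 0.37 in macrophages.

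The 3 clusters named oligodendrocytes did not share a direction for Ntrk2, and none of them was called. Cluster 11 had a median of 203 CPM with FGF1, from 1212 cells, and of 304 CPM with vehicle, from 166 cells (log2 fold change -0.69, SE 0.23, edgeR FDR 0.0666). It was called without FGF1 replicate 6 (edgeR FDR 0.0214), without vehicle replicate 20 (FDR 0.0212) and without vehicle replicate 35 (FDR 0.0416). On leaving out each mouse the edgeR FDR ran up to 0.272. Cluster 12 had a log2 fold change of -0.60 (SE 0.23, edgeR FDR 0.249), with 4 FGF1 and 6 vehicle mice. Cluster 2 had a median of 749 CPM with FGF1 and of 601 CPM with vehicle (log2 fold change 0.39, SE 0.14, edgeR FDR 0.232). The groups overlapped in all 3 clusters.

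**Figure D4:**
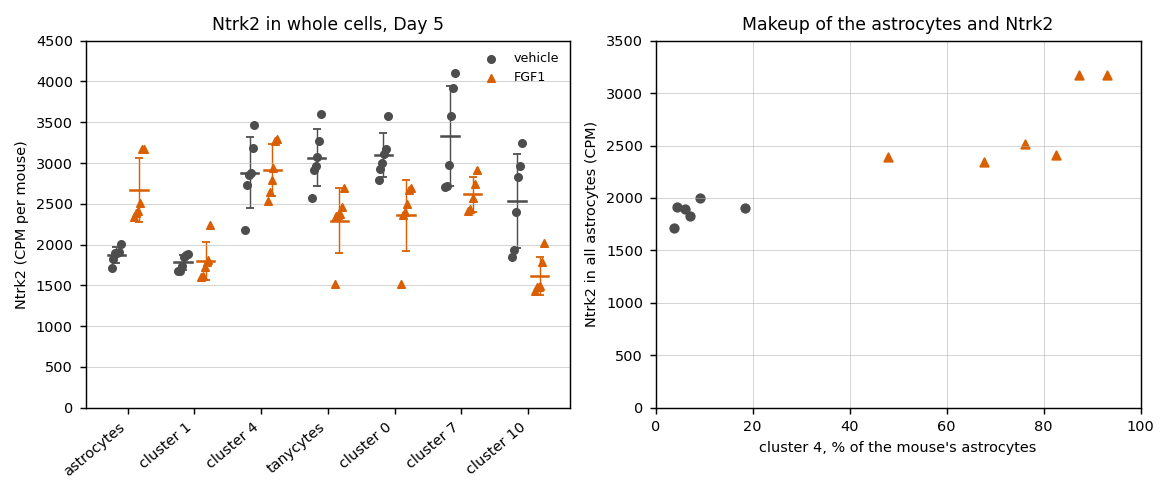
Ntrk2 in whole cells on Day 5 by mouse, as CPM of the type or cluster (left; points are mice, bars are means and whiskers are SD), and Ntrk2 in a mouse's astrocytes against the percent of them in cluster 4 (right). The astrocyte class of FGF1 mice lies between 2338 and 3171 CPM, above all vehicle mice, while clusters 1 and 4 taken separately overlap between treatments, and cluster 4 holds 47.9 to 93.1% of the astrocytes of FGF1 mice and 3.74 to 18.4% of those of vehicle mice.

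In nuclei the highest mean level of Ntrk3 was under a neuron label. In Day 1 vehicle mice the neuron labels with at least 2 mice ran from 474 ± 252 CPM in n13.Agrp/Gm8773 (SD, n = 3), the Agrp neurons that drive feeding, to 266 ± 19.5 CPM in n06.Oxt, each label overlapping its neighbour. VLMC nuclei, at 333 ± 111 CPM (SD, n = 3) from 60 UMIs, lay among the neuron labels. Astrocytes stood at 231 ± 129 CPM, tanycytes at 132 ± 34.4 CPM and ependymal cells at 64.2 ± 56.1 CPM. In Day 5 vehicle mice n29.Nr5a1/Adcyap1 stood at 452 ± 31.5 CPM (SD, n = 2), apart from unmapped neurons at 388 CPM. Slc17a6 nuclei exceeded GABA nuclei in 5 of 10 mice, with medians of 400.4 and 400.7 CPM.

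FGF1 gave no call for Ntrk3 in nuclei with edgeR. On Day 1, all neurons had 343, 555 and 440 CPM with FGF1 and 379, 315 and 415 CPM with vehicle, which overlapped, and the log2 fold change was 0.30 (SE 0.23, edgeR FDR 0.769). On Day 5, they had 428 and 419 CPM with FGF1 and 372 and 359 CPM with vehicle. Both FGF1 mice were above both vehicle mice, and the log2 fold change was 0.32 (SE 0.13, unadjusted edgeR p 0.0397, FDR 0.492). Tanycyte nuclei on Day 1 had 57.7, 160 and 113 CPM with FGF1 and 128, 99.8 and 168 CPM with vehicle, with a log2 fold change of -0.26 (SE 0.42, edgeR FDR 0.765).

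In whole cells, from which neurons were removed, Ntrk3 led in OPC at 129 ± 7.71 CPM in vehicle mice (SD, n = 6). VLMC stood at 97.1 ± 51.3 CPM (SD, n = 4) and overlapped both OPC and astrocytes at 74.6 ± 6.13 CPM. Tanycytes at 26.1 ± 5.71 CPM overlapped oligodendrocytes at 22.1 CPM, endothelial cells at 17.2 CPM and microglia at 16.9 CPM, so the tanycyte level lay close to that of several unrelated types.

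Ntrk3 fell in tanycytes on Day 5. It had a lowest value of 7.19, a median of 12.2 and a highest value of 14.7 CPM with FGF1, from 209 UMIs, and of 16.5, 27.4 and 31.0 CPM with vehicle, from 206 UMIs. The groups did not overlap. The log2 fold change was -1.02 (SE 0.19, edgeR FDR 0.00262), and 2.79% of the genes tested in tanycytes were called lower. In cluster 0, which held most tanycytes, the median was 9.88 CPM with FGF1 and 27.4 CPM with vehicle, again without overlap, and the log2 fold change was -1.21 (SE 0.22, edgeR FDR 0.00106), where 2.64% of genes were called lower. Both calls held in every alternative run.

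Mean Ntrk3 was lower with FGF1 in 8 of 11 types, among them endothelial cells (11.3 against 17.2 CPM), ependymal cells (7.10 against 15.6 CPM), oligodendrocytes (12.1 against 22.1 CPM) and microglia (11.3 against 16.9 CPM). Of these 4, Ntrk3 passed the filter on low counts only in oligodendrocytes, where it was not called (log2 fold change -0.67, edgeR FDR 0.369), and in oligodendrocyte cluster 2 it was -0.26 (edgeR FDR 0.890). FGF1 and vehicle mice filled the oligodendrocyte clusters differently, with 1799 and 5610 cells in cluster 2, 1212 and 166 in cluster 11 and 211 and 952 in cluster 12, and the part of this in the class value was not tested. With no filter the other three were not called either (log2 fold change -0.65 in endothelial cells, -0.97 in ependymal cells and -0.26 in microglia, edgeR FDR 0.516, 0.284 and 0.926). In the types with the highest level it was not lower: OPC had 146 CPM with FGF1 against 129 CPM (log2 fold change 0.16, edgeR FDR 0.587) and VLMC 138 against 97.1 CPM, where it was tested only with no filter and was not called (log2 fold change 0.32, SE 0.46). Astrocytes had 65.2 against 74.6 CPM (log2 fold change -0.25, edgeR FDR 0.186), and within them the log2 fold change was -0.04 in cluster 1 and -0.03 in cluster 4 (edgeR FDR 0.977 and 0.998). In the tanycytes, astrocyte markers summed to 1522 to 2478 CPM with FGF1 and 2690 to 4428 CPM with vehicle, OPC markers to 108 to 137 CPM against 145 to 231 CPM, and neuron markers to 116 to 234 CPM against 167 to 389 CPM, with 0 markers of these lists at 0. Endothelial cells had the same direction, with astrocyte markers at 1205 to 2357 CPM with FGF1 and 2037 to 3517 CPM with vehicle. The part of RNA from other cells in the fall of Ntrk3 was not tested. The tanycyte effect minus the astrocyte effect was -0.78 (SE 0.20, edgeR FDR 0.00327) for Ntrk3, where the astrocyte class again held the shift between clusters 1 and 4.

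**Figure D5:**
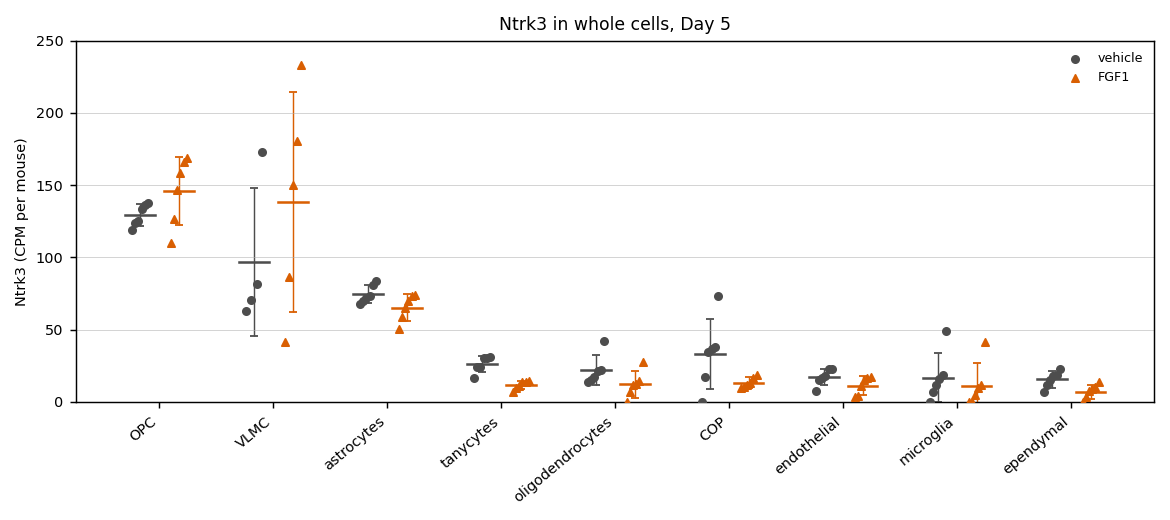
Ntrk3 in whole cells on Day 5 by mouse, as CPM of the type. Points are mice, bars are means and whiskers are SD. Tanycytes lie between 7.19 and 14.7 CPM with FGF1 and between 16.5 and 31.0 CPM with vehicle, while OPC have the highest mean in both groups.

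Ngfr was at the limit of detection. In nuclei, 14 of its 61 UMIs came from the 349 nuclei of Glu6, pooled over every mouse, at 12.7 CPM (95% exact Poisson interval 6.96 to 21.4), and 0 from the 1296 nuclei of Glu5. In whole cells, tanycytes gave 44 of 102 UMIs at 1.79 CPM (1.30 to 2.40) and oligodendrocytes 40 at 2.56 CPM (1.83 to 3.49), while astrocytes gave 4 at 0.246 CPM (0.0669 to 0.629). Over whole libraries Ngfr stood at 0 to 1.52 CPM with FGF1 and 0.446 to 1.80 CPM with vehicle in whole cells, which overlapped, and a difference was not detectable at this depth. In Day 1 nuclei it stood at 0 to 1.95 CPM (39 UMIs) with FGF1 and 0.357 to 1.22 CPM (10 UMIs) with vehicle, which also overlapped. In Day 5 nuclei it stood at 0.306 to 0.562 CPM (10 UMIs) against 0 to 0.191 CPM (2 UMIs). These values did not overlap, which 2 mice per group can show without an effect. With no filter on low counts Ngfr was called in 0 types of nuclei on either day.

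The genes most like each neurotrophin gene were found by Pearson's r of log2(mean CPM + 1) over the types of vehicle mice. These points share libraries and depth, and r is given as a description. For Ntrk2 over 25 types of nuclei they were Acsm5 (0.916), Gm20383 (0.903), Nes (0.889) and Rgs20 (0.867), and over 11 whole-cell types Mapk4 (0.960), Prdx6 (0.943), Pygb (0.940) and Nim1k (0.927). Nes encodes nestin, a filament protein of tanycytes and neural stem cells. For Ntrk3 they were Fam184b (0.886), Nrg3 (0.868), Focad (0.867) and Slc2a3 (0.864) in nuclei, and Slitrk2 (0.892), Cpq (0.889), Bmp7 (0.879) and Lrtm2 (0.878) in whole cells.

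For Bdnf in nuclei the closest genes were Gm29325 (0.842), Kif4 (0.841), Cftr (0.828) and Platr2 (0.812). In whole cells they included Zmiz2 (0.921), Ckmt1 (0.910) and Armc7 (0.909), each highest in macrophages, where Bdnf had 4 UMIs in vehicle mice. For Ntf3 in nuclei they were Gm16156 (0.795), Shroom4 (0.773), Art3 (0.769) and Arhgef11 (0.767), and for Ngfr they were Prr33 (0.772), Lactbl1 (0.744), Gm44199 (0.734) and Nr4a2 (0.713). The levels of Ntf3 and Ngfr behind these values rested on few UMIs. The highest mean of Bdnf in nuclei, 51.0 CPM in n31.Fam19a2, also came from only 2 UMIs on Day 1 and 3 on Day 5. Some of the named genes were low as well, with a highest mean of 14.5 CPM for Gm29325 and 15.7 CPM for Acsm5.

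Other genes of the pathway were followed in the types where a neurotrophin gene was called. The list held 51 genes of ligands and co-receptors, proform processing, Trk adaptors and p75 effectors. It was chosen with earlier results of these data known. Its counts and medians beside those of all genes are therefore a description and no test of the pathway. In Day 1 tanycyte nuclei 20 were tested, of which 3 rose and 0 fell, with a median log2 fold change of 0.22 against 0.03 over all genes tested. Of all genes tested there, 5.38% were called higher and 3.76% lower. Plat, which encodes tissue plasminogen activator, which generates plasmin, a protease that cleaves proBDNF, was 160 to 203 CPM with FGF1 and 26.9 to 35.7 CPM with vehicle (log2 fold change 2.62, edgeR FDR 0.00278). Arhgdia, which encodes a protein that binds p75, rose by 2.08 (edgeR FDR 0.0376). Of the 9 Trk adaptors tested, 0 were called by edgeR.

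In whole-cell astrocytes on Day 5, 33 genes of the list were tested, of which 4 rose and 1 fell, with a median of 0.15 against -0.02 over all genes, of which 6.55% were called higher and 6.06% lower. The astrocyte class held the shift between clusters 1 and 4 given above. Cluster 4 held a median of 79.4% of the astrocytes of FGF1 mice and 6.60% of those of vehicle mice. The part of this makeup in the values below was not tested. Plat was 117 to 190 CPM with FGF1 and 36.2 to 69.3 CPM with vehicle (log2 fold change 1.67, edgeR FDR 8.08e-09). Cpe, which encodes carboxypeptidase E, a prohormone-processing enzyme that also sorts proBDNF, was 4142 to 6495 CPM with FGF1 and 1645 to 2524 CPM with vehicle (log2 fold change 1.21, edgeR FDR 1.16e-07). Sorl1, a sorting receptor related to sortilin, and the adaptor gene Gab1 rose by 0.47 and 0.50 (edgeR FDR 0.00881 and 0.0124), and Ngfrap1, which encodes a p75-binding protein, fell by 0.45 (edgeR FDR 0.00597).

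In whole-cell tanycytes 34 genes of the list were tested, of which 0 rose and 1 fell, with a median of -0.01 over the list and -0.01 over all genes, of which 2.29% were called higher and 2.79% lower. Pcsk6, a proprotein convertase gene, was 15.6 to 21.6 CPM with FGF1 and 22.7 to 42.6 CPM with vehicle (log2 fold change -0.75, edgeR FDR 0.00657). In cluster 0 Plat rose by 1.03 and Pcsk6 fell by 0.70 (edgeR FDR 0.0209 and 0.0226) among 32 tested, where 2.64% of all genes were called higher and 2.64% lower. In cluster 10 edgeR called 0 of the 9 tested, where 0.973% of all genes were called higher and 1.16% lower.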

How the data were processed

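Single-nucleus and whole-cell libraries (Chromium 3′ v2) were aligned to GRCm38 and counted by the authors with Cell Ranger 1.2, with introns counted for nuclei, and annotated with Seurat. The deposited tables hold whole-number UMI counts per gene and barcode, with the authors' sample, batch, nuclear cell type and whole-cell cluster. The deposited percent of mitochondrial and ribosomal UMIs per whole cell was computed from the UMI counts by the authors in their processing with Seurat. These deposited percent values were used for 1 alternative that kept 50508 cells (limit 20%). For nuclei the same percent values were computed here from the deposited UMI counts, and this alternative kept 24054 nuclei (limit 5%). The deposited log-normalized values were not used. The nuclear table holds more barcodes, and the whole-cell table fewer, than the study describes. The authors removed doublets from the whole cells with Scrublet but left that step out for the nuclei, and no doublet caller was run here.

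Whole-cell clusters were named where at least 3 markers of a class stood out and at least 100 cells were present, and merged by name. A cluster that also held the full marker set of another class, each marker in at least 50% of the share of cells it has in that class, stayed unnamed (OPC and COP were exempt from each other). UMIs were summed per mouse and type, with at least 10 cells per mouse and 2 mice per group. The sums were tested in edgeR 4.0.16 (R 4.3.3) with filterByExpr, TMM scaling, robust dispersion and glmQLFTest, with no covariate. Differences between days and between types were interaction terms, the latter with the mouse as a block. CPM values in the text carry no TMM factor. Alternatives were DESeq2 1.42.0, RLE scaling, no filter, at least 20 cells, the quality limit, replicate and batch blocks, and leaving out each mouse. Scripts were checked on simulated data. Mice were grouped by the labels, and 1 vehicle mouse, replicate 35, was read from its treatment protocol.

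The 5 genes, the marker lists and the pathway list were chosen with earlier results of these data known. Every one of the 5 genes is named in each dataset. The 4 genes of highest Pearson correlation are named for each of them, among genes of at least 10 CPM in at least 1 type, and pathway genes are named where called, at most 8 in a type. Some genes that this rule would name are not reported here. The marker-based cluster limit of 100 cells was set after the data were seen. Precision is limited by the total of 2652897 to 16345981 UMIs per library.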

Additional observations from a re-analysis of the deposited data

Results flagged for a closer look

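Of 50 groups of mice tested for a value far from the rest, 7 held one, where chance gives about 1 in 20. In whole cells on Day 5, Ntrk2 stood far below the rest in tanycytes of FGF1 replicate 6, at 1515 CPM from 290 cells against 2352 to 2696 CPM in the other FGF1 mice. The same mouse stood at 1514 CPM in cluster 0, against 2365 to 2691 CPM. Without it the tanycyte log2 fold change of Ntrk2 was -0.26 in place of -0.35.

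FGF1 replicate 21 stood apart in cluster 1, where it had 61 cells, with Ntrk2 at 2235 CPM against 1598 to 1815 CPM and Ntrk3 at 0 CPM against 65.1 to 90.9 CPM. Ntrk2 in VLMC of FGF1 replicate 36 was 1129 CPM against 371 to 518 CPM. Ntrk2 in macrophages of vehicle replicate 20 was 894 CPM from 47 cells against 473 to 530 CPM. Ntrk3 in oligodendrocytes of vehicle replicate 27 was 42.1 CPM from 15 UMIs against 13.5 to 22.4 CPM.

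The effect of FGF1 differed between tanycytes and astrocytes in whole cells, by -0.78 on the log2 scale for Ntrk2 and by -0.78 for Ntrk3 (edgeR FDR 1.61e-06 and 0.00327). For both genes the astrocyte class included the shift between clusters 1 and 4, and for Ntrk3 the tanycyte level lay near that of endothelial cells and microglia.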

How the results depend on the processing

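On Day 1, the count of calls among the 5 genes was 1 as reported, 2 with no filter on low counts, 0 with a replicate block, 0 with a batch block, and 0 to 2 on leaving out each mouse, with 0 without FGF1 replicate 2, FGF1 replicate 3 or vehicle replicate 1 and 2 without vehicle replicate 3. Same-numbered Day 1 mice did not all deviate together (correlations -0.32, -0.46 and 0.52 in neurons and -0.16, -0.57 and 0.61 in astrocytes). Only the replicate 3 mice did. Mice of the same batch had correlations of -0.54, 0.21 and -0.63 in neurons and -0.72, 0.10 and -0.64 in astrocytes. Neither numbers nor batches were taken as pairs in the reported tests. By whole-cell cluster the count was 2 as reported, 1 with no filter and 2 to 4 on leaving out each mouse, with 4 without vehicle replicate 35. The setting with no filter tested more genes, and leaving out a mouse left fewer mice, but the cause of these shifts was not tested. The share of all genes called is given only for the reported setting, so the counts in the alternatives cannot be set against it. Ntrk2 in astrocytes kept its side of the threshold in each dataset and alternative. Over the alternatives to 110 single values, 1340 kept direction and side of the threshold, 96 changed sign without passing the threshold in either setting, 9 passed it newly, 6 lost it and 0 called values changed sign. The sign changes fell on 45 of the 110 values, among them Ntrk3 in tanycyte nuclei on Day 1. Leaving out a mouse on Day 5 leaves 1 nuclear library in a group, assumed to vary like the others. The blocks by batch in nuclei and all alternatives by cluster were added after the data were seen. Shallow counts of Ntf3 and Ngfr and the few tanycyte nuclei limit what could be detected.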
